A study of Mus musculus with 6 samples.

Results

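The PST probes are 2716 of the 14242 non-control probes (19.1%) of a mouse small RNA array on which plasma EVs were profiled. They were taken as all non-control spots whose identifier carries the letters PST after the common stem ASMM10SMR20, 1 spot per probe. The other small RNA probes of the array carry the letters MIRNA (9709 probes) or TRF (1767 probes), and 50 probes target mRNAs. The files do not pair a PST identifier with the name of an RNA and do not say which class of RNA the letters stand for, so the probes are described by identifier, and probe sequences are not used here. In what follows a probe is given by the number in its identifier, so that PST 20986 stands for ASMM10SMR20PST100020986TV1.

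Extracellular vesicles (EVs) are membrane-bound particles that cells release into body fluids, and those of plasma come from blood cells, platelets, vessel walls and other tissues. They carry RNA, much of it short, including miRNAs and fragments of longer noncoding RNAs such as tRNAs. On an array of this kind each RNA is labeled at its end with a dye and binds to the DNA probe that matches it, so that the brightness of a spot follows how much of that RNA was bound. Probes with related sequences can bind the same RNA, and brightness also depends on how well a probe binds, so a difference in level between probes is a difference in brightness and not in the amount of different RNAs.

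The comparison asks how the small RNA of EVs in the plasma of tumor-bearing mice differs from that of mice without a tumor. Non-cancer-EVs came from 3 control samples and cancer-EVs from 3 samples of lung cancer mice, with 1 array per sample. The mice were young adults of the C57BL/6J strain. Tumors grew from a transplanted line of mouse lung cancer, Lewis lung carcinoma (LLC), which arose in this strain, so that a single line stands for lung cancer. EVs were pelleted by ultracentrifugation of filtered plasma in both groups, and the labels do not say whether a sample is 1 mouse or a pool, so p-values measure the spread between these samples. The deposited treatment text speaks of irradiated blood of volunteers, whereas the organism label, the sample descriptions and the methods give mice. The label of EVs was not checked against markers, because no PST identifier is paired with an RNA.

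The arrays differed in brightness within both groups. The median intensity of the non-control spots was 28.9, 24.7 and 42.9 for non-cancer-EVs 1, 2 and 3, and 26.1, 44.2 and 33.9 for cancer-EVs 1, 2 and 3. No non-control spot was saturated. All arrays came from 1 scan, with cancer-EVs 1, 2 and 3 and non-cancer-EVs 1 in one row of the slide and non-cancer-EVs 2 and 3 in the other. Among PST probes, between 91.7% (cancer-EVs 1) and 99.7% (non-cancer-EVs 3) were well above background on an array, and 2409 of the 2716 were so on all 6 arrays. A spot with an outlier mark was not counted as above background. Of the 4 PST probes counted on no array, 3 carried an outlier mark on all 6 arrays and were not dim, and 1 was dim. The number of arrays limits the precision of every comparison.

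Most PST probes were dim and a few were among the brightest small RNA probes of the array. On the log2 scale after quantile normalization, the mean level over the 6 arrays had a median of 4.71 and quartiles of 3.69 and 6.31 for the PST probes. The median was 5.09 for MIRNA and 5.22 for TRF probes. Levels of at least 10 on this scale were reached by 120 PST probes (4.42%), compared with 7.27% of MIRNA and 1.30% of TRF probes. Levels of at least 16 were reached by 9 PST probes (0.332%) and 11 MIRNA probes (0.113%), and by 0 TRF probes. The PST series held 5 of the 10 brightest small RNA probes, 16 of the 50 brightest and 146 of the 1000 brightest (14.6%). The series was thus dimmer than the other series at its middle and held more of the very top than its 19.1% of the probes.

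The share of the array's light on PST probes was close to their 19.1% of its probes on non-cancer-EVs 2 and above it on the other arrays. Their part of the summed intensity was 21.2%, 19.2% and 23.9% in non-cancer-EVs 1, 2 and 3 and 25.6%, 22.5% and 21.7% in cancer-EVs 1, 2 and 3. The highest share was in a cancer-EV array and the lowest in a non-cancer-EV array, and the other values of the groups overlapped. The mean was 21.4% ± 2.4 (SD, n = 3) in non-cancer-EVs and 23.3% ± 2.0 (SD, n = 3) in cancer-EVs, a difference of 1.84 percentage points (two-sided exact permutation test, p = 0.40, where 3 arrays against 3 cannot give less than 0.1). The difference became 0.703 without cancer-EVs 1, 0.711 when non-cancer-EVs 2 was left out and 3.07 when non-cancer-EVs 3 was. The MIRNA share was 74.99% ± 2.58 and 72.9% ± 2.3, and the TRF share 2.31% ± 0.17 and 2.49% ± 0.25, in the same order (SD, n = 3).

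This light was concentrated in very few probes. Between 7 and 13 probes per array made up 50% of the PST intensity, and between 59 and 121 made up 90% of it. The dimmer 50% of the PST probes held 0.970%, 1.00% and 0.827% of it in non-cancer-EVs 1, 2 and 3 and 0.641%, 0.677% and 0.721% in cancer-EVs 1, 2 and 3. All 3 cancer-EV arrays lay below all 3 non-cancer-EV arrays in this last share, and the exact permutation p of 0.1 is the smallest that 3 against 3 arrays allow. Of the many array measures compared, only this share and the number of outlier-marked PST spots reached it. This share was not recomputed with other background handling or with an array left out. The single brightest probe alone held between 5.92% and 10.1% of the PST intensity of an array.

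The 10 PST probes with the highest mean level were PST 20986, 27899, 5087, 4481, 28054, 33973, 37750, 30291, 32283 and 41060, in this order. Together they held 58.1%, 54.3% and 43.4% of the PST intensity in non-cancer-EVs 1, 2 and 3, and 51.2%, 43.4% and 53.5% in cancer-EVs 1, 2 and 3. The share was lowest on non-cancer-EVs 3 and cancer-EVs 2, the arrays with the highest median intensity in their groups. The group means were 51.9% ± 7.6 and 49.4% ± 5.3 (SD, n = 3; exact permutation p = 0.50), a difference of -2.56 percentage points. Leaving out non-cancer-EVs 1 turned this difference to 0.521, and leaving out cancer-EVs 2 turned it to 0.431. None of the 10 probes carried an outlier mark on any array.

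PST 20986 was the brightest small RNA probe of any series on every array. Its intensity was 171782, 142339 and 185617 in non-cancer-EVs 1, 2 and 3 and 160577, 194314 and 209229 in cancer-EVs 1, 2 and 3. The highest was 1.47 times the lowest, and the groups overlapped. PST 27899 ranked between 2 and 5 on all 6 arrays, and PST 5087 between 3 and 10. In the lower part of the 10 the arrays differed more. PST 32283 had intensities of 40065, 30980 and 99274 in non-cancer-EVs 1, 2 and 3 and of 86526, 108923 and 115148 in cancer-EVs 1, 2 and 3. Non-cancer-EVs 1 and 2 were thus the low arrays, while non-cancer-EVs 3 lay within the range of the cancer-EVs. They were also the low arrays in PST 41060, with 32740, 36867 and 88809 in non-cancer-EVs 1, 2 and 3 and 78796, 87219.9 and 84461 in cancer-EVs 1, 2 and 3. Non-cancer-EVs 2 was the lowest array for 9 of the 10 probes, and it also had the lowest median intensity of all arrays.

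Quantile normalization gives every array the same set of values by rank, so a probe that keeps its rank keeps its value. PST 20986 therefore had a log2 level of 17.44 on every array and a log2 fold change of 0.00. In the other 9 probes the log2 fold change (cancer-EVs minus non-cancer-EVs) lay between -0.09 (PST 33973) and 0.50 (PST 32283), and none of the 10 passed both cutoffs of the methods, p below 0.05 and more than 1.4-fold. PST 41060 came nearest, with 15.45, 15.55 and 16.04 in non-cancer-EVs and 16.28, 16.04 and 16.14 in cancer-EVs, which fell short of the fold cutoff at 1.39-fold (limma, Benjamini-Hochberg adjusted p = 0.689). With each array scaled to its 75th percentile in place of quantile normalization, PST 41060, 37750, 30291 and 32283 passed both cutoffs, with log2 fold changes of 0.71, 0.55, 0.60 and 0.95. PST 30291 and 32283 also passed under cyclic loess, at 0.55 and 0.90, and PST 32283 and 41060 without non-cancer-EVs 3, at 0.71 and 0.66. PST 41060 passed further without cancer-EVs 2, at 0.54, and with slide row as a block or slide row 1 alone, at 0.71 in both.

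Across the whole series most PST probes changed little between the groups. Of the 2716 probes, 2688 cleared the background by the scanner software's own mark on 3 arrays or more, and limma fitted them together with all 13801 probes kept. Past both cutoffs of the methods, 69 PST probes were higher in cancer-EVs (2.57%) and 59 were lower (2.19%). Over all probes tested the shares were 3.04% higher and 1.71% lower, so the PST shares were close to the background of the array. The counts depended on the processing: cyclic loess gave 73 higher and 25 lower, normexp on spot medians 23 and 8, and the replicate block 128 and 62, so that the higher probes were 74.5%, 74.2% and 67.4% of the calls in place of 53.9%. MIRNA probes had 3.25% higher and 1.45% lower, and TRF probes 2.57% higher and 2.33% lower. After Benjamini-Hochberg adjustment over all probes tested, limma called 0 PST probes at 0.05, and the share called over all probes was 0%. The smallest adjusted p of a PST probe was 0.384. An unadjusted p below 0.05 was reached by 227 PST probes (8.44%), against 6.90% of all probes. With the methods' t-test, 15 PST probes were higher and 32 lower past both cutoffs. It gave 205 with an unadjusted p below 0.05, and 0 once adjusted.

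The middle of the series lay slightly lower in cancer-EVs. The median log2 fold change was -0.08 over the PST probes tested and -0.07 over all probes, and 36.6% of PST and 38.3% of all probes were above 0. This shift of the whole series was not tested. The PST median stayed below 0 in every setting, but its size depended on the setting. The PST and all-probe medians were -0.04 and -0.01 under cyclic loess and -0.02 and -0.02 under normexp. They were -0.11 and -0.02 without non-cancer-EVs 1, and -0.05 and -0.10 without non-cancer-EVs 2. The overlap of the groups, given next, was counted under quantile normalization only. For single PST probes, the median SD between replicates was 0.17 in non-cancer-EVs and 0.24 in cancer-EVs. The groups did not overlap for 346 PST probes in the lower direction (12.9%) and for 104 in the higher direction (3.87%). Among small RNA probes of all series tested the shares were 8.75% lower and 4.5% higher. Small differences made up most of the lower set: its median log2 fold change was -0.34, and 52 of the 346 were past 1.4-fold. Of the 346, 110 lay among the dimmest 896 PST probes by mean level, 146 among the middle 896 and 90 among the brightest 896. That set held 49 of the 59 lower probes past both cutoffs. Past both cutoffs, the brightest 896 held 51 of the 69 higher and 25 of the 59 lower probes, and the dimmest 896 held 5 higher and 19 lower. The SD of the log2 fold changes was 0.47 among the brightest 896 and 0.23 among the dimmest 896. Probes of like level in the other series were not compared. By size alone, 33 PST probes were more than 2-fold higher and 8 more than 2-fold lower, of 2688 tested, beside 225 and 36 of all 13801 probes.

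Among the 69 higher probes the median log2 level was 5.73, 6.87 and 6.83 in non-cancer-EVs 1, 2 and 3 and 7.56, 7.95 and 7.48 in cancer-EVs 1, 2 and 3. Non-cancer-EVs 1 was the lowest array for 55 of the 69, and cancer-EVs 2 the highest for 37. Among the 59 lower probes the medians were 5.39, 5.40 and 5.19 in non-cancer-EVs and 4.78, 4.37 and 4.78 in cancer-EVs, with cancer-EVs 2 the lowest array for 43 and non-cancer-EVs 1 the highest for 27 and non-cancer-EVs 2 for 23. Over the 2670 tested PST probes without an outlier mark, the first principal component of the levels held 48.0% of their variance and set non-cancer-EVs 1 (loading 0.71) against cancer-EVs 2 (loading -0.67), with the other arrays between -0.14 and 0.13. The second held 24.4% and set cancer-EVs 1 (loading -0.89) against the rest. Across PST probes, Pearson r of the levels lay between 0.982 and 0.991 for pairs of non-cancer-EV arrays, between 0.976 and 0.987 for pairs of cancer-EV arrays and between 0.955 and 0.992 for mixed pairs, and the array closest to cancer-EVs 1 and to cancer-EVs 3 was non-cancer-EVs 3. Probes are not independent replicates.

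The counts moved with single arrays. Without non-cancer-EVs 1, 22 PST probes were higher and 46 lower at the cutoffs, and without cancer-EVs 2, 31 were higher and 33 lower. Leaving out non-cancer-EVs 2 gave 104 higher and 37 lower. Leaving out non-cancer-EVs 3 gave 100 and 112, cancer-EVs 1 gave 100 and 157, and cancer-EVs 3 gave 92 and 132. Of the 69 higher and 59 lower probes on all arrays, 21 and 29 were also past the cutoffs without non-cancer-EVs 1, and 24 and 21 without cancer-EVs 2. A block for slide row was also fitted, in which 262 were higher and 92 lower, and on the 4 arrays of row 1 alone, 219 were higher and 44 lower. The other row holds no cancer-EV array, so both settings compare the cancer-EVs with non-cancer-EVs 1 only. The part of the slide row in these counts was not tested. With the array's median intensity as a covariate, 51 were higher and 44 lower. The share called over all probes is not given for these settings, so the counts describe the PST series alone. The median log2 fold change over all probes moved as well. It was -0.07 on all arrays, -0.02 without non-cancer-EVs 1 and -0.16 with the slide row block.

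Among PST probes past both cutoffs that cleared the background on every array and whose groups did not overlap, PST 3664 (ASMM10SMR20PST100003664TV1) had the largest rise. Its log2 levels were 5.95, 7.89 and 7.55 in non-cancer-EVs 1, 2 and 3 and 10.43, 9.61 and 8.87 in cancer-EVs 1, 2 and 3. Every cancer-EV array was above every non-cancer-EV array, and non-cancer-EVs 1 was the lowest by far. The means were 7.13 ± 1.04 and 9.64 ± 0.78 (SD, n = 3), a log2 fold change of 2.51 (standard error 0.55) and a 5.70-fold rise (limma, Benjamini-Hochberg adjusted p = 0.424). PST 13183 (ASMM10SMR20PST100013183TV1) had a like order of arrays, with 5.29, 7.08 and 6.81 in non-cancer-EVs and 9.53, 8.61 and 7.96 in cancer-EVs. Its log2 fold change was 2.31 (standard error 0.53, limma adjusted p = 0.424). Leaving out non-cancer-EVs 1 gave log2 fold changes of 1.92 for PST 3664 and 1.75 for PST 13183, and the slide row block, which compares with that array only, gave 3.69 and 3.41. Neither kept its rank among the small RNA probes: the best and worst ranks were 722 and 4945 for PST 3664 and 1073 and 6466 for PST 13183.

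The largest falls of this kind were in brighter probes. PST 34023 (ASMM10SMR20PST100034023TV1) had log2 levels of 12.67, 13.31 and 14.39 in non-cancer-EVs 1, 2 and 3 and 12.58, 12.37 and 11.48 in cancer-EVs 1, 2 and 3. The groups did not overlap, but non-cancer-EVs 1 and cancer-EVs 1 differed little. Its log2 fold change was -1.31 (standard error 0.45, limma adjusted p = 0.689). PST 26429 (ASMM10SMR20PST100026429TV1), the brightest PST probe after those 10, had levels of 15.82, 16.67 and 16.42 in non-cancer-EVs and 15.41, 15.32 and 14.27 in cancer-EVs, with cancer-EVs 3 the lowest. Its log2 fold change was -1.30 (standard error 0.34, limma adjusted p = 0.470). With slide row as a block, both kept their direction and missed the p cutoff, at log2 fold changes of -0.52 and -0.82, and both missed it also under cyclic loess normalization, at -1.05 and -0.94. PST 34023 missed it also with the methods' t-test and, at -0.98, without cancer-EVs 3, and its value was -0.85 when non-cancer-EVs 3 was left out. Larger fitted changes, up to a log2 fold change of 3.08 and down to -1.72, were found in probes with an outlier mark on 1 array, where the fit drops that array.

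PST 10491 (ASMM10SMR20PST100010491TV1) was the only PST probe with an adjusted p below 0.05 in any setting run. Its log2 levels were 4.996, 6.35 and 6.44 in non-cancer-EVs 1, 2 and 3 and 6.87, 8.48 and 8.07 in cancer-EVs 1, 2 and 3, so the groups did not overlap and array 1 was the lowest in each group. Its log2 fold change was 1.88 (standard error 0.49, limma adjusted p = 0.470). With the replicate number as a block, the adjusted p was 0.0267 by limma, and over all settings run it lay between 0.0267 and 0.999. Arrays of equal number did not deviate together over the PST probes in all 3 cases (r = 0.22, 0.14 and -0.19), so the numbers were not taken as pairs. Its log2 fold change was 1.42 when non-cancer-EVs 1 was left out, 1.28 under normexp on spot medians and 2.81 with slide row as a block.

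The identifiers of the PST series are sparse. They run from 1 to 46385, with a median gap of 12 between neighbours, and only 145 of the 2715 gaps are of 1 (5.34%), compared with 99.9% of the gaps among MIRNA probes. Numbers that follow each other without a gap form 120 pairs, 11 runs of 3 and 1 run of 4, and the other 2439 probes stand alone. Of the 15 probes chosen for naming here, 13 stand alone.

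Neighbours in number were not alike in level. Over the 145 pairs that follow each other, Pearson r of the mean log2 levels was 0.04 and the median difference was 1.67, close to the 1.68 over all neighbours at any gap. Among MIRNA probes r was 0.73 over 9698 such pairs, with a median difference of 0.40. For TRF probes at a gap of 2 to 5 it was 0.45 over 1353 pairs, against 0.08 for PST at the same gaps over 612 pairs. These pairs share arrays and neighbours, and r is given as a description. For the log2 fold changes, r was 0.21 over 142 PST pairs that follow each other and 0.03 over 141 of them without a single pair, PST 3663 and 3664. It was -0.03 at a gap of 2 to 5 and -0.01 over all neighbours of the series, against 0.62 over 9165 MIRNA pairs that follow each other.

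A few neighbours show the range. Next to the bright PST 37750, at a mean log2 level of 16.58, stands ASMM10SMR20PST100037751TV1 at 4.62, and PST 30291 at 16.17 has a neighbour 2 numbers below it at 8.37 (ASMM10SMR20PST100030289TV1) and another 2 numbers above it at 3.27 (ASMM10SMR20PST100030293TV1). The one pair of following numbers that were both higher in cancer-EVs at the cutoffs was ASMM10SMR20PST100003663TV1 and ASMM10SMR20PST100003664TV1. The former had log2 levels of 13.07, 13.62 and 14.99 in non-cancer-EVs and 15.53, 14.61 and 14.95 in cancer-EVs. Here the groups overlapped, since non-cancer-EVs 3 lay above cancer-EVs 2 and 3. Its log2 fold change was 1.14 (standard error 0.47, limma adjusted p = 0.689), and it was the brighter of the pair by far, with a mean of 14.46 against 8.38. Of the 145 pairs, 14 held at least 1 probe past the cutoffs, and in none were both lower or the directions opposite. Of all PST probes tested, 2.57% were higher and 2.19% lower. At such shares few pairs can hold 2 calls, so these counts are not read as a trait of neighbours.

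The numbers crowd together at regular steps. With a crowded probe taken as one that has at least 8 other PST identifiers within 50 numbers, a rule chosen after the identifiers were seen, 1179 crowded probes formed 25 stretches of the numbering, and 1537 probes were not crowded. The stretches began a median of 1928 numbers apart, and each step was between 1536 and 2079. They held between 13 and 140 probes, with a median of 46. Without the last one, the median log2 level of the crowded probes was 4.71, against 4.82 for the 1537 others, and 2.91% were higher and 2.52% lower in cancer-EVs, against 2.50% and 1.71%. Of the 10 brightest PST probes, 8 were not crowded.

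The last stretch differed from the rest in level. It runs from number 45887 to 46385 and holds 140 probes, and its median log2 level of 3.34 was the lowest of the 25 stretches, whose highest was 5.21. The median was low on each array, 3.30, 3.48 and 3.39 in non-cancer-EVs 1, 2 and 3 and 3.46, 3.10 and 3.26 in cancer-EVs 1, 2 and 3, against 4.64 to 4.84 over all PST probes. Of its probes, 57.9% were well above background on all 6 arrays, compared with 88.7% of all PST probes. Of 135 tested, 1 was higher and 7 were lower in cancer-EVs at the cutoffs (0.741% and 5.19%), beside 3.04% and 1.71% of all probes tested. Among the dimmest 896 PST probes, 5 were higher and 19 lower. Calls leaned the same way there, and whether the stretch differs from equally dim probes was not tested.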

How the data were processed

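Spot intensities were extracted by the authors with Feature Extraction 11.0.1.1. As deposited, they are linear, background-subtracted and not normalized between arrays. A deposited table of log2 values, which the methods attribute to quantile normalization by the authors, served as an alternative; its values for the 2716 PST probes differed by a median of 0.04 from those used here. Controls and outlier-marked spots were dropped. All remaining intensities were quantile normalized across the 6 arrays, floored at 1 and put on the log2 scale. One two-sided fit without covariates (limma 3.58.1, lmFit then eBayes, under R 4.3.3) covered every probe that cleared the background on 3 arrays or more and gave cancer-EVs minus non-cancer-EVs. Benjamini-Hochberg adjustment covered all probes of all series. The cutoffs were those of the methods, where no adjustment is named, and p was taken as unadjusted. Shares were computed from intensities without normalization. The fit was tested on simulated data with independent noise and no array effects. That test does not cover normalization or shifts shared by the probes of an array.

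Named probes were the 10 brightest, the 2 largest rises and 2 largest falls past both cutoffs (above background on every array, groups apart), any PST probe at an adjusted p below 0.05 with or without the replicate block, and the members of runs that hold them. PST 37751 and the neighbours of PST 30291 were named to show levels. The probes and rules were chosen with earlier results of these data known. Alternatives covered normalization, background correction, outlier marks, filters, source of values, test, blocks, a brightness covariate, the adjustment and leaving out each array. The use of slide row 1 alone was added after seeing the data.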

Additional observations from a re-analysis of the deposited data

How the results depend on the processing

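The 69 higher and 59 lower PST probes at the cutoffs kept to within 1.5 times under the 75th percentile normalization (79 and 74), with outlier-marked spots kept, with either other filter on dim probes, with the deposited log2 table and with array brightness as a covariate. Cyclic loess gave 73 higher and 25 lower, so that 74.5% of the calls were higher against 53.9%. Normexp on spot medians gave 23 and 8 (74.2% higher), and the methods' t-test 15 and 32 (31.9% higher). Slide row as a block gave 262 and 92 (74.0% higher), and slide row 1 alone, chosen after seeing the data, 219 higher (83.3%). No probe called in the text was called in the opposite direction under any of these. With the replicate block, 128 were higher (67.4% of the calls) and 62 lower, and 1 PST probe had an adjusted p below 0.05, where the other settings gave 0. Over PST probes, deviations from the group means correlated between arrays of equal number with r = 0.22, 0.14 and -0.19, and only non-cancer-EVs 2 was most like the cancer-EV array of its own number, so equal numbers were not read as pairs. The cause of these shifts was not tested. Shares over all probes are not given for these settings or with arrays left out, so the counts describe the PST series alone.

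With each array left out in turn, higher probes ranged from 22 to 104, lower probes from 33 to 157 and adjusted calls from 0 to 0. The difference in the PST share of the array signal ranged from 0.703 to 3.07 percentage points, and that in the share of the 10 brightest from -6.83 to 0.521, turning its sign when non-cancer-EVs 1 or cancer-EVs 2 was left out. Under spot medians minus local background and under quantile normalized signals, the differences were 1.82 and 1.69 for the PST share and -2.70 and -2.00 for the 10 brightest. On slide row 1 alone, with 1 non-cancer-EV array and no test, they were 2.03 and -8.73. PST 3664, 13183 and 10491 kept their direction and stayed past both cutoffs in all 18 alternatives, and PST 34023 and 26429 kept their direction and missed the cutoffs in 8 of their 36. Normexp ran on spot medians, since spot means are not used here. Of the 28 PST probes not tested, 24 were dim and 4 had lost 5 or 6 arrays to outlier marks.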

Other observations

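Spots with an outlier mark, left out of the report's comparisons, lay almost entirely in the PST series. Of 49 marks on small RNA spots of the 6 arrays, 45 fell on 22 PST probes, 4 on MIRNA probes and 0 on TRF probes. Per array, 4, 6 and 6 PST spots were marked in non-cancer-EVs 1, 2 and 3 and 10, 12 and 7 in cancer-EVs 1, 2 and 3 (exact permutation p = 0.10, the smallest that 3 against 3 arrays allow). Most marked probes were marked on 1 array, and for some the marks returned on several arrays: 14 probes were marked on 1 array, 4 on 2, 1 on 5 and 3 on all 6. Marked probes spanned dim and bright spots, and the values of 2 bright ones, chosen after they were seen, are given. ASMM10SMR20PST100040507TV1, marked on all 6 arrays, had intensities of 2553, 2697 and 19140 in non-cancer-EVs 1, 2 and 3 and 12050, 17223 and 7344 in cancer-EVs 1, 2 and 3, and ASMM10SMR20PST100038210TV1, marked on 5, had 5990, 7369.5 and 31641 and 19088, 17701 and 9228, in the same order. Non-cancer-EVs 3 was the highest array for both. With the marked spots kept, 68 PST probes were higher and 59 lower at the cutoffs.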
